A study of Rattus norvegicus with 12 samples.

Results

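Cd44, Has1, Has2, Hmmr, Tnc and Spp1 make up a small group of genes around hyaluronan and the pericellular matrix, and their RNA was followed in cultured rat optic nerve head astrocytes given epidermal growth factor (EGF). The 6 genes were looked up by platform gene symbol in the deposited value table. Where a gene had more than 1 probe set, the brightest on average over the 12 arrays led. Of the 6 genes, 5 had a probe set, with 7 probe sets among them, out of 31042 non-control probe sets on the array. All 7 were bright enough, with a mean signal of at least 215 units, to be among the 18625 probe sets tested. No probe set carried the symbol Has1, so the level of that hyaluronan synthase was not analysed here.

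The study comprised 2 experiments on primary astrocyte cultures from the optic nerve head, the tissue where retinal ganglion cell axons leave the eye. The groups were cultures with EGF for 4 h, their 4 h controls, cultures with EGF for 12 h, and their 12 h controls, with 3 arrays each. The controls were sister cultures. No EGF dose, strain, age or genotype was given in the labels. Group names were taken from the sample titles, because the description field called every sample control. The labels do not say whether replicates came from separate cultures, so the p-values describe the spread among these arrays alone, which may be technical.

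Hyaluronan is a long sugar polymer that is spun out of the cell by synthases of the Has family and held at the surface by the receptor CD44. Tenascin-C (Tnc) and osteopontin (Spp1) are secreted proteins that act on integrins and other receptors at the cell surface, and both are known from reactive astrocytes and injured nerve. Hmmr encodes a hyaluronan-binding protein that, inside the cell, sits on the mitotic spindle.

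The 250 bases before the start that a RefSeq promoter table on GRCr8 uses are shown for 4 members, so that members that moved in different directions with EGF can be compared. That table does not name the transcript, and RefSeq's gene spans reach further 5′ than the start used, so that the Cd44 and Spp1 windows lie inside their genes and the Tnc and Hmmr windows overlap theirs. The sequences are written 5′ to 3′ on the gene's own strand, which is minus for all 4, with matches to 6 motifs, on either strand, in capitals. The windows lie at chr3:109699425-109699674 (Cd44), chr5:82476132-82476381 (Tnc), chr14:5619805-5620054 (Spp1) and chr10:25665216-25665465 (Hmmr). Has2 is named only.
Cd44: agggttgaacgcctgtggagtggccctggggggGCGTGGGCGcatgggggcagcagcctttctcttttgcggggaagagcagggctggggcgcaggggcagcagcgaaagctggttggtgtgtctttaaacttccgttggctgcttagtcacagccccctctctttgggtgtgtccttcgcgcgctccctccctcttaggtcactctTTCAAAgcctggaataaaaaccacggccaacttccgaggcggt
Tnc: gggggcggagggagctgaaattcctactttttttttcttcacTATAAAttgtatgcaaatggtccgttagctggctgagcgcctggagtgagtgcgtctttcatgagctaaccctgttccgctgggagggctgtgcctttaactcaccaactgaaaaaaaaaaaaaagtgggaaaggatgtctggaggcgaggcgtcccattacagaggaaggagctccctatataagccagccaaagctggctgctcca
Spp1: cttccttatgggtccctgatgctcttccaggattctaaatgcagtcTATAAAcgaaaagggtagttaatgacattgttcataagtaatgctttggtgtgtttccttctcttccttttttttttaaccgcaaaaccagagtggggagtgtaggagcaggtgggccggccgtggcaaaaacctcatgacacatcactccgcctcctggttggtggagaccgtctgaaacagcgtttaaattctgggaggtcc
Hmmr: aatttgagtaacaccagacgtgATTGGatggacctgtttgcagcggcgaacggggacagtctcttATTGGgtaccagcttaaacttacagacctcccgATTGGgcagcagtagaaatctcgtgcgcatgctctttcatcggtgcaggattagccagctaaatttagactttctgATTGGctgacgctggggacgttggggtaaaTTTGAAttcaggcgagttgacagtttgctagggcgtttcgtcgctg
Cd44 held the Egr motif GCGTGGGCG at bases -217 to -209 from the start used, which 0.478% of 33465 promoters of the same length hold. Hmmr held 4 reverse-strand copies of the CCAAT box, a motif of 34.0% of promoters. The cell cycle element TTTGAA, in 16.2% of promoters, stood at -46 to -41 in Hmmr and on the reverse strand at -43 to -38 in Cd44. Spp1 and Tnc held TATAAA at -204 to -199 and at -208 to -203, as 12.9% of promoters do. The AP-1 motif TGANTCA was in none of the 4 windows and is in 6.34% of promoters. The cAMP response element TGACGTCA was likewise in none of the 4 and is in 1.59%. No matches overlapped, and a match describes letters, not binding.

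Some arrays stood apart. The ratio of the 3' to the 5' actin probe sets, a measure of RNA or target integrity, was 1.20 to 1.61 on the 4 h arrays and 1.24 on EGF replicate 3 at 12 h, against 11.1 to 21.7 on the other 5 arrays at 12 h. The mean signal of the BioB, BioC and BioD hybridisation controls was 10542 and 11860 on the replicate 3 pair at 4 h and 33.1 to 128.6 on the remaining arrays. Of the astrocyte markers, Gfap, Aqp4, Slc1a2, Aldh1l1 and Pax2 lay below the brightness filter, while Vim averaged 62763 to 91773 over the 4 groups. All 9 fibroblast and meningeal markers were above the filter. Gfap averaged 195.2 signal units with EGF and 215.3 in controls at 4 h, and 130.1 with EGF and 200.8 in controls at 12 h.

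Cd44, Has2 and Tnc rose after 4 h of EGF and Hmmr fell. At 12 h Cd44, Has2 and Spp1 were higher with EGF and Tnc was lower. Thus 3 of the 5 measured genes were higher at 4 h, beside 11.4% of all probe sets tested, and 1 was lower, beside 16.5%. At 12 h 3 were again higher, beside 15.3% of all probe sets, and 1 was lower, beside 20.8%. The median log2 fold change of the 5 leading probe sets was 2.06 at 4 h and 2.51 at 12 h, beside -0.15 and -0.06 over all probe sets tested. A gene was called where the limma adjusted p was under 0.05. The RNA came from whole cultures, so fewer cells of a type and less RNA per cell cannot be told apart.

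**Figure D1:**
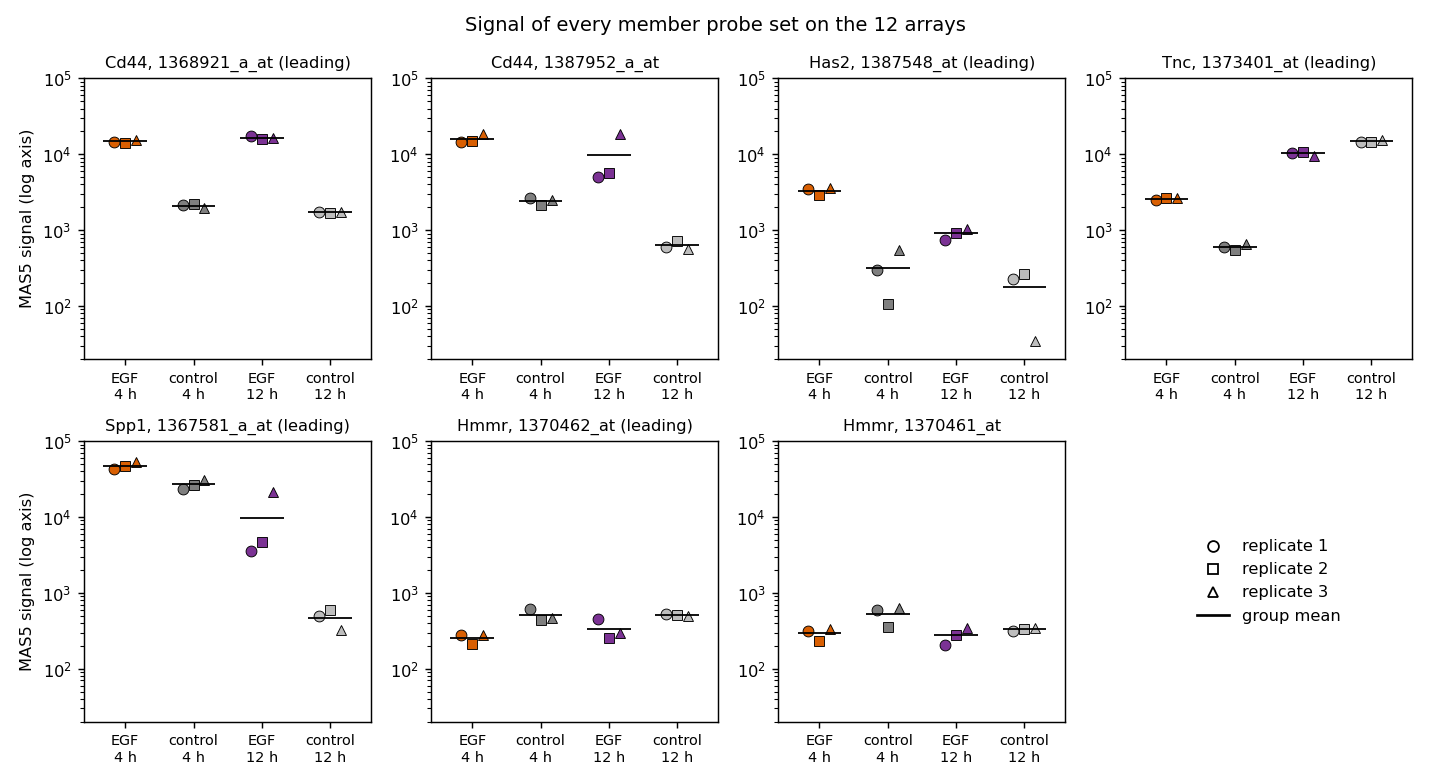
MAS5 signal (log axis) of the 7 probe sets on each of the 12 arrays, grouped by treatment and time. Points are arrays, with the replicate number as the symbol, and lines are group means; the Cd44 and Has2 points with EGF lie above all control points at the same time, while the Tnc points with EGF lie above control at 4 h and below it at 12 h.

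The hyaluronan receptor Cd44, which links the pericellular coat to the cell's actin cortex, rose strongly at both times on its leading probe set. Its leading probe set 1368921_a_at read 14601, 14198 and 15597 signal units in EGF cultures at 4 h, against 2139, 2199 and 1982 in their controls. The 12 h arrays read 17591, 16128 and 16160.2 with EGF, against 1709.9, 1696 and 1740.2 in controls. Every EGF array was far above every control array at both times, and the arrays of a group differed little from each other. Cd44 averaged 14799 ± 720 with EGF and 2107 ± 112 in controls at 4 h, a ratio of 7.02 (SD, n = 3 each). It averaged 16626 ± 836 with EGF and 1715 ± 22.6 in controls at 12 h, a ratio of 9.69. The log2 fold change was 2.80 ± 0.11 (SE, adjusted p = 2.04e-09) at 4 h and 3.26 ± 0.11 (adjusted p = 3.67e-10) at 12 h. These stood at rank 118 and rank 94 from the top of the 18625 changes. The effect was 0.46 ± 0.15 larger at 12 h, which did not pass the test of the difference (adjusted p = 0.0686). That difference passed without EGF replicate 3 at 12 h (0.48, adjusted p = 0.0358). It also passed in the fit with array set as a block (0.48, adjusted p = 0.0148), which groups arrays by time, hybridisation control signal and actin ratio. EGF replicate 3 is alone in its array set at 12 h, so the block also takes that array out of the estimate. The fits are therefore not separate support.

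The second Cd44 probe set, 1387952_a_at, gave the same direction with uneven levels at 12 h. It read 14727, 14822 and 18367 with EGF, against 2640.5, 2129 and 2509 in controls at 4 h. At 12 h it read 5054, 5613 and 18442 with EGF, against 592, 722 and 571 in controls. EGF replicate 3 was 3.46 times the mean of EGF replicates 1 and 2, while the leading probe set gave 0.959 for the same ratio. The log2 fold change was 2.70 ± 0.36 (adjusted p = 9.14e-05) at 4 h and 3.64 ± 0.36 (adjusted p = 4.42e-06) at 12 h. Without EGF replicate 3 the 12 h change was 3.04 ± 0.15. The signal of this probe set over that of the leading one was 0.968 to 1.27 on the 4 h arrays and 1.14 on EGF replicate 3 at 12 h, against 0.287 to 0.426 on the other 5 arrays at 12 h. The low ratios lay on the arrays with the high actin ratio. The part of the actin ratio in the Cd44 levels was not tested.

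**Figure D2:**
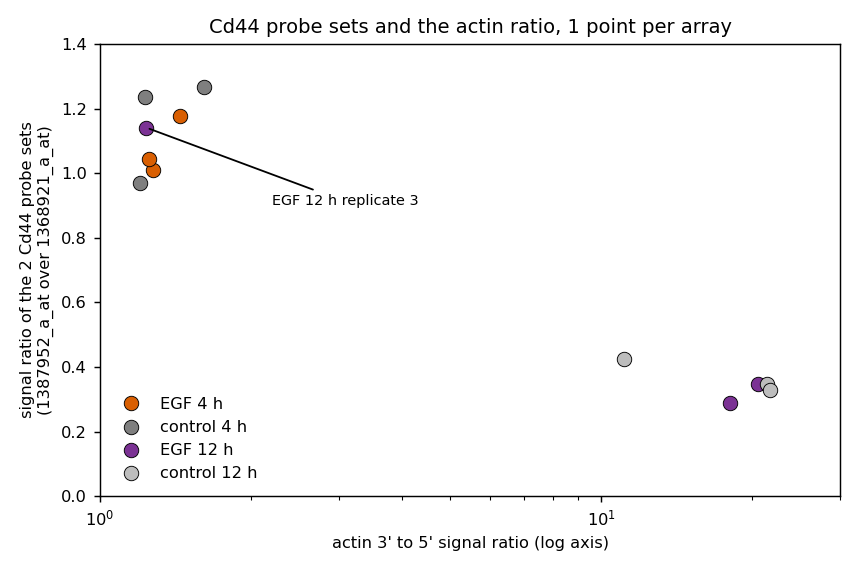
Signal of Cd44 probe set 1387952_a_at over that of 1368921_a_at against the actin 3' to 5' signal ratio (log axis), with 1 point per array, coloured by EGF and control at 4 h and 12 h. The 7 arrays with an actin ratio of 1.20 to 1.61 have probe set ratios of 0.968 to 1.27 and the other 5 have 0.287 to 0.426.

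Has2 encodes a hyaluronan synthase that is readily induced by growth factors in many cell types, and its RNA showed a high ratio to control at both times. Probe set 1387548_at read 3461, 2931 and 3591 with EGF at 4 h, against 302, 107 and 545 in controls. The 12 h EGF arrays read 751, 924 and 1051, against 227, 267 and 34.2 in controls. The EGF arrays lay above the controls at both times with no overlap, and the controls were low and scattered. Has2 averaged 3328 ± 349.5 with EGF and 318 ± 219 in controls at 4 h, a ratio of 10.5. It averaged 909 ± 150.2 with EGF and 176 ± 124 in controls at 12 h, a ratio of 5.17. The log2 fold change was 3.53 ± 0.56 (adjusted p = 4.17e-04) at 4 h and 2.51 ± 0.56 (adjusted p = 0.00341) at 12 h. Without control replicate 3 at 12 h, the array at 34.2, the 12 h change was 1.77 (adjusted p = 0.0114). The change at 12 h minus that at 4 h was -1.02 ± 0.79 and did not pass (adjusted p = 0.450). With 1 array left out it ran from -1.75, without control replicate 3 at 12 h, to -0.44, without control replicate 2 at 4 h, and did not pass (adjusted p = 0.101 to 0.762).

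Tenascin-C, an extracellular matrix glycoprotein that loosens adhesion and is made in development and injury, went in opposite directions at the 2 times. Probe set 1373401_at read 2519, 2621 and 2624 with EGF at 4 h, against 606, 544 and 656 in controls. After 12 h the EGF arrays read 10493, 10788 and 9497, against 14682, 14601 and 15316 in controls. The groups did not overlap at either time, but EGF arrays were the high ones at 4 h and the low ones at 12 h. Tnc averaged 2588 ± 59.9 with EGF and 602 ± 56.2 in controls at 4 h, a ratio of 4.30, and 10259 ± 676 with EGF and 14866 ± 391 in controls at 12 h, a ratio of 0.690 (SD, n = 3 each). The log2 fold change was 2.06 ± 0.12 (adjusted p = 4.82e-08) at 4 h and -0.54 ± 0.12 (adjusted p = 0.00278) at 12 h. The difference between them was -2.60 ± 0.16 (adjusted p = 1.86e-06). In the 12 h controls Tnc was higher than in the 4 h controls by 4.58 ± 0.12 on the log2 scale (adjusted p = 6.84e-11), at rank 6 from the top of all changes. Time, experiment and array set cannot be told apart in that comparison.

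**Figure D3:**
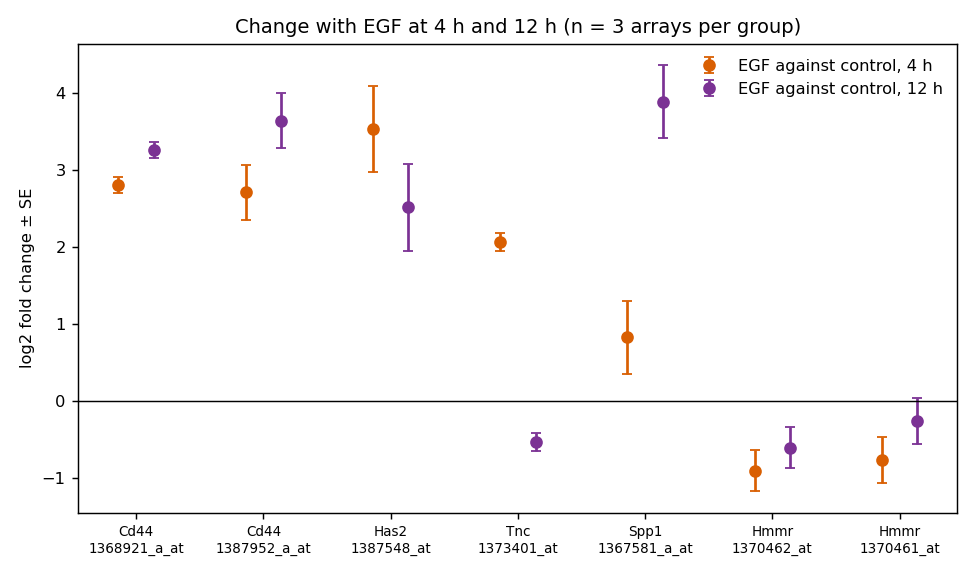
Log2 fold change of EGF against control for the 7 probe sets at 4 h and at 12 h, with bars for the SE (n = 3 arrays per group). Cd44 and Has2 lie above 0 at both times, Tnc changes sign between 2.06 at 4 h and -0.54 at 12 h, and Spp1 reaches 3.88 at 12 h.

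Osteopontin (Spp1), a secreted phosphoprotein that binds CD44 and integrins, was bright in all cultures at 4 h and differed with EGF at 12 h. Probe set 1367581_a_at read 42311, 47022 and 53684 with EGF at 4 h, against 23459.7, 26765 and 30628 in controls. After 12 h it read 3522, 4722 and 21055.5 with EGF, against 492, 596.5 and 321.5 in controls. The EGF arrays lay above the controls at both times, and EGF replicate 3 at 12 h was 5.11 times the mean of replicates 1 and 2. The log2 fold change at 4 h was 0.82 ± 0.47, a ratio of 1.77, and did not pass over all 12 arrays (adjusted p = 0.224). With EGF replicate 3 at 12 h left out of the shared spread it passed, at 0.82 ± 0.19 (adjusted p = 0.00298). At 12 h the change was 3.88 ± 0.47 (adjusted p = 3.18e-05), a ratio of 20.8. Without that array it was 3.09 ± 0.21 (adjusted p = 3.62e-08), and the mean of replicates 1 and 2 was 8.77 times the control mean. The 12 h change exceeded the 4 h change by 3.06 ± 0.67 (adjusted p = 0.0107), and by 2.27 ± 0.28 (adjusted p = 9.03e-05) without EGF replicate 3. The 12 h controls were lower than the 4 h controls by -5.80 ± 0.47 (adjusted p = 2.64e-06), at rank 3 from the bottom of all changes. Time, experiment and array set cannot be told apart there either. The actin ratio was 11.1 to 21.7 in the 12 h controls and 1.20 to 1.61 in the 4 h controls. Among the EGF arrays at 12 h it was 1.24 on replicate 3, and 18.1 and 20.5 on replicates 1 and 2. The part of the actin ratio in the Spp1 levels was not tested.

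At 12 h, where Cd44, Has2 and Spp1 were higher with EGF, 3 of the 6 tested astrocyte markers were lower and 0 higher. With an unadjusted p under 0.05, 1 was higher. The shares over all probe sets at 12 h were 20.8% lower and 15.3% higher. None of the 6 passed at 4 h by limma or at an unadjusted p under 0.05. The shares at 4 h were 16.5% lower and 11.4% higher. Aldoc averaged 31.0 with EGF and 2655 in controls at 12 h (-5.64 ± 0.64), and the connexin Gjb6 45.2 and 1122 (-4.40 ± 0.69). Glutamine synthetase (Glul) averaged 2980 with EGF and 7210.1 in controls (-1.28 ± 0.15). Aldoc and Gjb6 passed the brightness filter only through the 12 h controls, where they were high. The filter thus favoured their falls at 12 h, so the count of 3 lower is no result about the list. Their means at 4 h were 85.6 with EGF and 160.5 in controls for Aldoc, and 69.2 and 16.9 for Gjb6. The 4 h comparison of both genes therefore says little. The summed signal of the 11 astrocyte markers on the array, mostly Vim, was 78048 to 120423 with EGF and 78779 to 87403 in controls at 12 h, and 68321 to 74364 with EGF and 68364 to 74931 in controls at 4 h. Their part in the member results was not tested.

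Markers of microglia and macrophages, which also make osteopontin, were read beside Spp1. Of 10 such markers, 4 were tested, and Itgam, Ptprc, Cx3cr1, P2ry12, C1qa and C1qb lay below the brightness filter. None of the 4 passed at 4 h in the limma fit, nor at an unadjusted p under 0.05. Cd68 and Tmem119 were higher with EGF at 12 h, beside 15.3% of all probe sets. The shares of all probe sets at 4 h were 11.4% higher and 16.5% lower. Cd68, a lysosomal protein of phagocytes that other cells also carry, read 1055, 841 and 877 with EGF at 12 h, against 133, 39.8 and 13.8 in controls (3.70 ± 0.58, adjusted p = 2.43e-04). Cd68 passed the brightness filter only through these EGF arrays. The filter thus favoured its rise, so the count of markers higher at 12 h is no result about the list. Cd68 was dim at 4 h. Its 4 h means were 72.4 with EGF and 47.2 in controls, so its 4 h comparison says little. The summed signal of the 10 markers was 3789 to 4723 with EGF and 2209 to 2473 in controls at 12 h, and 3989 to 5161 with EGF and 4828 to 5324 in controls at 4 h. Their part in the Spp1 result was not tested. The summed fibroblast markers were 122069 to 191998 with EGF and 218319 to 261653 in controls at 12 h. They were 225072 to 241614 with EGF and 255256 to 286076 in controls at 4 h. Of the 9, 6 were lower at 12 h (4 under median centring), where Spp1, Cd44 and Has2 were higher. The share of all probe sets lower at 12 h was 20.8%. Among the 9 at 4 h, 1 was higher and 1 lower (0 lower under median centring), which lies near the shares of 11.4% and 16.5%.

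Hmmr was dim and was lower with EGF. Its leading probe set 1370462_at read 281, 215 and 277.5 with EGF at 4 h, against 619.7, 438 and 466 in controls. At 12 h it read 456, 255 and 299 with EGF, against 532, 504 and 499 in controls. No EGF array reached a control array at either time. The 4 h change was -0.91 ± 0.27 (adjusted p = 0.0211), and the 12 h change of -0.61 ± 0.27 did not pass (adjusted p = 0.0913). At 4 h it no longer passed under median centring or quantile normalization (-0.71 in both, adjusted p = 0.0757 and 0.0652), nor without EGF replicate 2 (-0.79, adjusted p = 0.0819) or control replicate 1 (-0.76, adjusted p = 0.0931). At 12 h it passed without EGF replicate 1 (-0.83, adjusted p = 0.0288). The second probe set, 1370461_at, read 316, 232.5 and 329 with EGF at 4 h, against 588, 351 and 638 in controls (-0.77 ± 0.30, adjusted p = 0.0725). At 12 h it read 203, 279.7 and 347 with EGF, against 310.5, 338.5 and 339.8 in controls, and the groups overlapped (-0.26 ± 0.30, adjusted p = 0.524).

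Of the 5 genes, Spp1 and Tnc differed in their EGF effect between the times, beside 11.6% of all probe sets, while Cd44, Has2 and Hmmr did not pass. In the controls Tnc was higher at 12 h than at 4 h and Cd44 and Spp1 were lower, beside 45.4% of all probe sets called in that comparison. For Cd44 that change was -0.29 ± 0.11 on the leading probe set (adjusted p = 0.0398) and -1.91 ± 0.36 on the second (adjusted p = 0.00103), and the leading one was lost under median centring (-0.13, adjusted p = 0.497). It was also lost without EGF replicate 1 or 2 or control replicate 1 or 2 at 4 h, or any 1 of the 3 controls at 12 h (adjusted p = 0.0563 to 0.121). The groups were ordered by mean signal on the leading probe sets. Cd44 ran from EGF at 12 h through EGF at 4 h and control at 4 h to control at 12 h. Its neighbours did not overlap. On the second Cd44 probe set the mean with EGF was 15972 at 4 h and 9703 at 12 h, and those groups overlapped. Tnc ran from control at 12 h through EGF at 12 h and EGF at 4 h to control at 4 h, without overlap between neighbours. Spp1 ran from EGF at 4 h through control at 4 h and EGF at 12 h to control at 12 h, and its neighbours did not overlap. In Has2 the order was EGF at 4 h, EGF at 12 h and then both controls, whose ranges overlapped. On the leading probe set of Hmmr both controls overlapped each other, and EGF at 12 h overlapped EGF at 4 h and the 4 h controls. Only the 4 contrasts named were tested.

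Of 5 tested enzymes that make hyaluronan's sugar precursors, 3 rose and 0 fell at each time, with a median log2 fold change of 0.85 at 4 h and 1.19 at 12 h. Over all probe sets 11.4% were higher and 16.5% lower at 4 h, and 15.3% and 20.8% at 12 h. At an unadjusted p under 0.05, 1 was lower at 4 h and 0 at 12 h. Gfpt2, which starts the hexosamine pathway, averaged 2315 with EGF and 450.2 in controls at 4 h (2.30 ± 0.19, adjusted p = 1.31e-06) and was still higher at 12 h (1.19 ± 0.19). Ugdh, which makes UDP-glucuronic acid, rose at 4 h (1.12 ± 0.15, adjusted p = 1.09e-04), and at 12 h its change was 0.16 ± 0.15 (adjusted p = 0.451). Gnpnat1, a later hexosamine enzyme, rose at both times (0.85 ± 0.16 and 1.41 ± 0.16), and Pgm3 rose at 12 h (1.23 ± 0.32). Quantile normalization, the fit with array set as a block, and the fit without EGF replicate 3 at 12 h each added 1 lower call at 4 h.

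In the list of hyaluronan synthesis and breakdown only genes of breakdown were tested, as the synthase Has3 had no probe set. Of the 6 tested, 1 rose and 3 fell at 4 h, and 0 rose and 3 fell at 12 h (0 higher also at an unadjusted p under 0.05). These counts stand beside 11.4% higher and 16.5% lower over all probe sets at 4 h, and 15.3% and 20.8% at 12 h. The medians were -0.53 and -0.66, and median centring gave 2 higher and 2 lower at 4 h. Cemip, which is needed for hyaluronan breakdown in human fibroblasts, averaged 28422 with EGF and 51229 in controls at 4 h (-0.85 ± 0.16, adjusted p = 0.00161). At 12 h it averaged 14482 with EGF and 61444 in controls (-2.11 ± 0.16, adjusted p = 4.68e-07). Its relative Cemip2 rose at 4 h (1.86 ± 0.26, adjusted p = 1.29e-04). The hyaluronidase Hyal3 fell at 4 h, with 538.5 on average with EGF and 1101 in controls, though not as a median over its probe sets (-0.53, adjusted p = 0.120), and the change of Hyal2 was 0.48 ± 0.20 at 4 h (adjusted p = 0.0884). The lysosomal glycosidase Gusb fell at both times (-0.73 ± 0.17 and -1.13 ± 0.17), and Hexa fell at 12 h (-1.26 ± 0.24). Hexa read 14202, 14543 and 6419 with EGF at 12 h. With 1 array left out its 12 h change ran from -1.46 to -0.88. The Gusb call at 4 h was lost under median centring (adjusted p = 0.106).

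Among 5 tested hyaluronan-binding matrix proteins, 1 rose at 4 h, and 1 rose and 1 fell at 12 h, with medians of 0.43 and 0.06. Over all probe sets 11.4% were higher at 4 h, and 15.3% higher and 20.8% lower at 12 h, so these counts are no result about the list. The one that rose at both times was versican (Vcan), a large proteoglycan that binds hyaluronan. It averaged 3125 with EGF and 449 in controls at 4 h (2.76 ± 0.20) and 11938 with EGF and 456 in controls at 12 h (4.64 ± 0.20, adjusted p = 2.70e-09). Tnfaip6, which transfers protein chains onto hyaluronan, fell at 12 h (-1.09 ± 0.23, adjusted p = 0.00248), and its 4 h change was 0.52 ± 0.23 (adjusted p = 0.114), which passed under median centring (0.72, adjusted p = 0.0268). Hapln3 passed at neither time (-0.56 ± 0.34, adjusted p = 0.245, and -0.52 ± 0.34, adjusted p = 0.253). Of 2 tested other hyaluronan receptors, Tlr2 was higher (1.50 ± 0.29) and Tlr4 lower (-0.86 ± 0.21) at 12 h, and neither passed at 4 h, nor at an unadjusted p under 0.05.

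Of 7 tested linkers and sheddases of CD44, 4 rose and 1 fell at 4 h, and 3 rose and 0 fell at 12 h (1 lower at an unadjusted p under 0.05), with medians of 0.51 and 0.21. The splicing factors on that list were not tested, as Esrp1 lay below the brightness filter and Esrp2 had no probe set. Over all probe sets 11.4% were higher and 16.5% lower at 4 h, and 15.3% higher and 20.8% lower at 12 h. Ezrin (Ezr), which joins CD44 to actin, rose at both times (2.10 ± 0.18 and 1.51 ± 0.18). Moesin (Msn) rose by 0.72 ± 0.14 at 4 h and 2.37 ± 0.14 at 12 h, and their relative radixin (Rdx) fell at 4 h (-0.46 ± 0.12). Under median centring 0 of the 7 were lower at 4 h, so the Rdx call was lost. The CD44-cleaving proteases Adam17 (0.74 ± 0.20) and Mmp14 (0.51 ± 0.13) rose at 4 h, and Adam10 rose at 12 h (1.28 ± 0.34). Adam10 read 1015, 909 and 2942 with EGF at 12 h, against 598, 636 and 469.8 in controls, and without EGF replicate 3 its change was 0.75 ± 0.19 (adjusted p = 0.00756). The Mmp14 call was lost without EGF replicate 2 at 4 h (adjusted p = 0.0515) and without the replicate 3 pair (0.38, adjusted p = 0.0817), and that of Msn at 4 h as a median over its probe sets (0.92, adjusted p = 0.0730). Of 4 tested tenascin partners, 2 rose at 4 h and 4 at 12 h (11.4% and 15.3% higher over all probe sets), with the heparan sulfate proteoglycan Sdc4 at 0.81 ± 0.17 and 0.46 ± 0.17, and fibronectin (Fn1) at 0.66 ± 0.18 at 12 h. The Sdc4 call at 12 h was lost in 15 of 24 alternatives. Without EGF replicate 3 its change was 0.29 (adjusted p = 0.143), 8 other single arrays each ended the call when left out, and with the replicate number as a block its adjusted p was 0.0513. The count of 4 was 3 without that array, with array set as a block and under quantile normalization. Anxa2 rose by 0.49 ± 0.17 at 4 h (adjusted p = 0.0477), which was lost with the replicate block (adjusted p = 0.0701). Removal of the third EGF array of 4 h also ended that call (0.33, adjusted p = 0.180), as did removal of any of 7 other single arrays. The 12 h rise of Anxa2 was 0.97 ± 0.17 (adjusted p = 5.74e-04), and was lost only as a median over its probe sets (0.55, adjusted p = 0.0886). Itga8 rose at 12 h (1.28 ± 0.39, adjusted p = 0.0211). Its call was lost in 3 of 23 alternatives, among them without control replicate 2 at 12 h (0.86, adjusted p = 0.0914).

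Of 5 tested osteopontin receptor genes, all integrin subunits, 2 rose and 1 fell at 4 h, and 3 rose and 1 fell at 12 h, with medians of 0.18 and 0.71. Over all probe sets 11.4% were higher and 16.5% lower at 4 h, and 15.3% and 20.8% at 12 h. Itga5 (1.79 ± 0.27 and 1.16 ± 0.27) and Itgb3 (1.48 ± 0.35 and 1.04 ± 0.35) rose at both times. Itgb1 rose at 12 h (0.71 ± 0.15), and Itgb5 fell at both (-0.73 ± 0.15 and -0.43 ± 0.15). Itgb3 averaged 122.9 in controls and 389.6 with EGF at 4 h, and 237.4 and 495.2 at 12 h. Its controls together were too dim for the brightness filter, so the filter favoured its rises. Its part in the counts of higher genes is therefore no result about the list. Itga5 read 849, 1031 and 2043 with EGF at 12 h. With 1 array left out its 12 h change ran from 0.79 to 1.41. Under median centring Itgb5 passed at neither time (-0.53, adjusted p = 0.0553, and -0.36, adjusted p = 0.161), and at 12 h it was lost in 10 alternatives, among them the removal of EGF replicate 1 at 4 h, control replicate 1 or 2 at 12 h, or EGF replicate 1 or 2 at 12 h. Itgb3 at 12 h was lost with the replicate block (adjusted p = 0.0567) and without control replicate 1 (0.70, adjusted p = 0.135) or EGF replicate 1 (0.88, adjusted p = 0.0982) at 12 h. Of 9 tested spindle and mitosis genes read beside Hmmr, 0 rose and 3 fell at 4 h, and 0 rose and 7 fell at 12 h, with medians of -0.53 and -1.06 (0 higher at an unadjusted p under 0.05 at either time). Over all probe sets 16.5% were lower at 4 h and 20.8% at 12 h. The motor Kif11 fell at both times (-1.07 ± 0.23 and -1.34 ± 0.23), as did Mki67 (-1.03 ± 0.28 and -1.26 ± 0.28) and the checkpoint kinase Bub1 (-0.80 ± 0.22 and -0.66 ± 0.22). Top2a fell at 12 h (-1.06 ± 0.23, adjusted p = 0.00310), and its 4 h change was -0.42 ± 0.23 (adjusted p = 0.212). Bub1 at 12 h did not pass with the replicate block (adjusted p = 0.0519), nor without control replicate 2 or 3 or EGF replicate 2 or 3 at 12 h (adjusted p up to 0.117). At 4 h the calls of Bub1 without EGF replicate 2 (adjusted p = 0.0549) or control replicate 1 (0.0529), and of Mki67 without EGF replicate 3 (0.0592) or control replicate 3 (0.0630), were lost. The 4 h count was 1 under median centring and quantile normalization. Over all 8 lists, 43 of 87 genes were tested, of which 13 rose and 8 fell at 4 h and 15 rose and 13 fell at 12 h. The shares over all probe sets were 11.4% higher and 16.5% lower at 4 h, and 15.3% and 20.8% at 12 h, and the 8 lower of 43 at 4 h lie near their share.

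**Figure D4:**
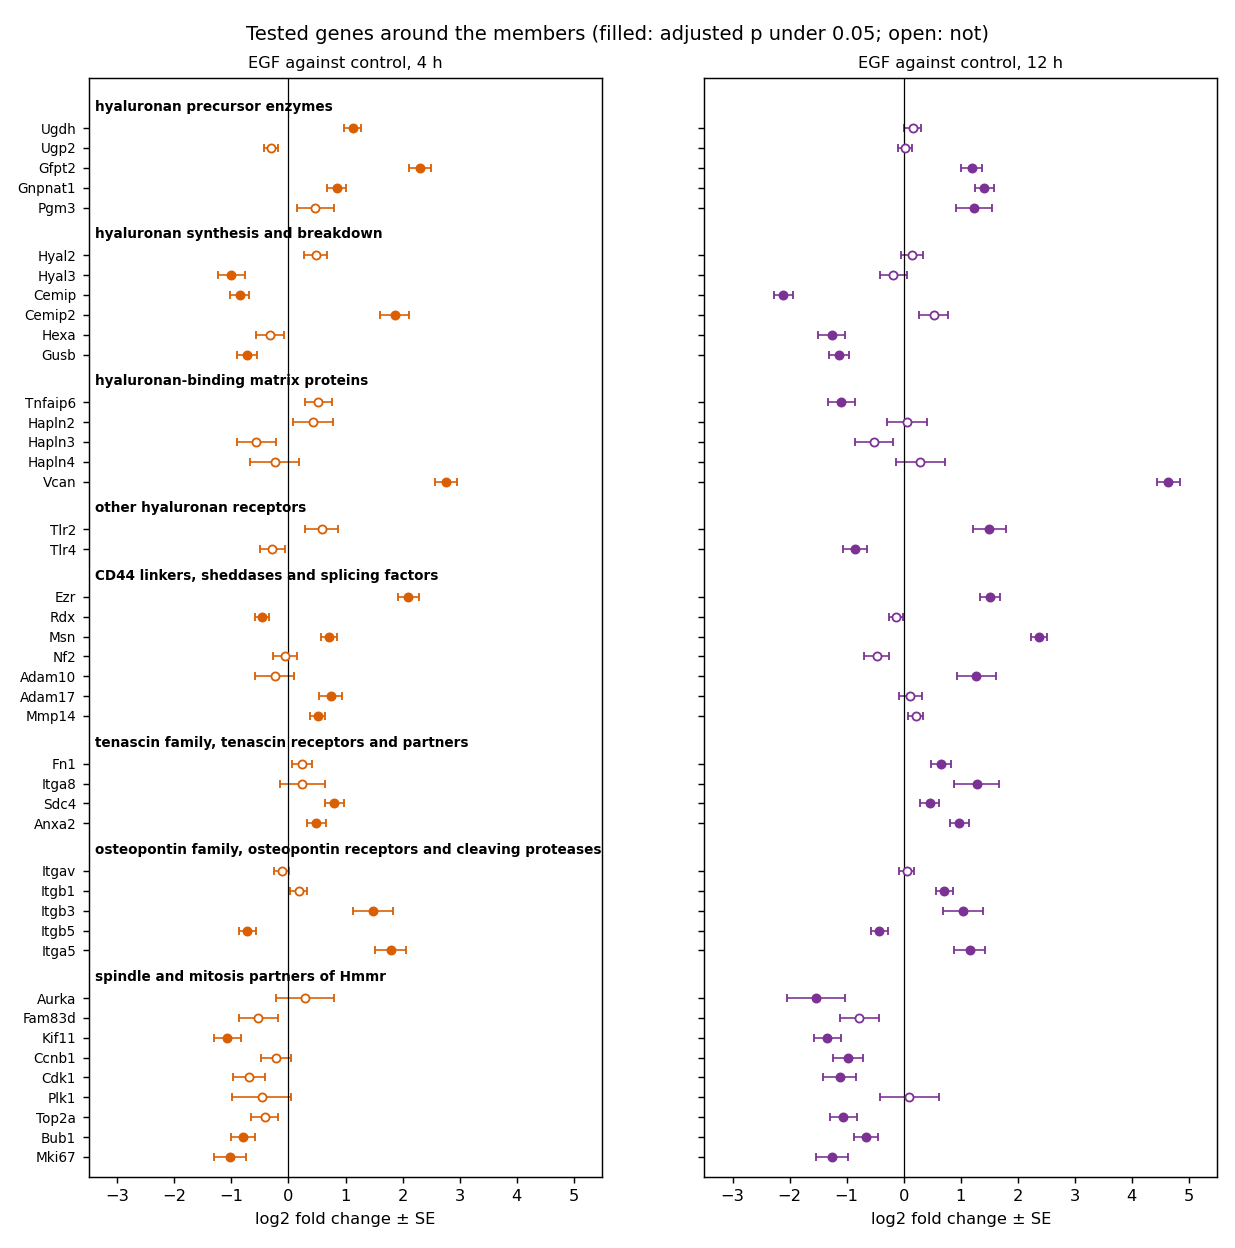
Log2 fold change of EGF against control (SE bars, n = 3 arrays per group) of the 43 tested genes around the members at 4 h and at 12 h, by list. Filled points passed at an adjusted p of 0.05 and open points did not; Vcan is the highest at both times and Cemip the lowest at 12 h.

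Genes whose log2 signal most resembled each member over the 12 arrays were taken from 10256 genes. For Cd44 they were Pkp1 (r = 0.993), Tnfaip8l3 (0.992) and Kpnb1 (0.991). For Has2 they were Kprp (0.959), Pus1 (0.959) and Rdh10 (0.950). For Hmmr they were Miip (0.951), Trpc1 (0.951) and Tet2 (0.933), and for Tnc they were Med22 (0.980), Mtss1 (0.979) and Pals2 (0.978). For Spp1 they were Ywhaz (0.988), Ewsr1 (0.987) and Cd9 (0.982). These correlations are descriptions over 12 arrays that share 4 groups and the array sets above.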

How the data were processed

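RNA was measured on 12 Affymetrix arrays of 1 colour, 3 arrays in each of 4 groups. The authors deposited a linear intensity per probe set, computed with MAS5 according to the submitters' processing notes, whose version is not given in the sources used here. Trimmed means of 1500.46 to 1500.56 show that each array was scaled alike. Gene names came from the platform annotation. The members and gene lists were chosen with earlier results of these data known.

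From these values, log2(signal + 24.4), with the 10th percentile of all signals as the offset, was fitted with limma 3.58.1 (R 4.3.3) as means of the 4 groups over all 12 arrays, with an intensity trend. The 18625 non-control probe sets whose mean reached the 40th percentile of signals (215) entered 4 contrasts, two-sided, with Benjamini-Hochberg adjustment and a threshold of 0.05. A log2 change on this scale understates that of dim genes. The fit was tested on simulated data. The number of arrays limits the precision.

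Every member and each probe set of it was named. From each list, up to 3 genes with the smallest p at each time were named, with Has3, Tnr, Hyal1, Hyal2, Cemip and Tnfaip6 where tested, and list genes outside that rule were named after their values were seen. Promoter motifs were chosen after the results were known. Alternatives were other filters, offsets, scalings, fits on the 6 arrays of a time, leaving out arrays, and a replicate or array set block. Array sets were told apart by time, a hybridisation control signal over 1000 and an actin ratio over 5. Deviations of same-numbered arrays correlated at 0.121, 0.150 and 0.376 at 4 h, and at 0.083, -0.111 and -0.104 at 12 h, so the numbers were not taken to pair all samples and the block is given as an alternative.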

Additional observations from a re-analysis of the deposited data

Results flagged for a closer look

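The EGF effects on Spp1 and Tnc differed between the times by the test of that difference. For Spp1 the log2 fold change at 12 h exceeded that at 4 h by 3.06, and for Tnc the 12 h change minus the 4 h change was -2.60. The 2 times are separate experiments whose arrays differ in the actin ratio, so time, experiment and array set cannot be told apart here.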

How the results depend on the processing

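The direction and call of Cd44, Has2, Spp1 (12 h) and Tnc held in all 24 alternatives at the times they were called, with Cd44 at 2.72 to 2.99 (4 h) and 3.20 to 3.45 (12 h). Hmmr at 4 h lost its call without a filter (-0.91), under median centring and quantile normalization (-0.71 each) and without the replicate 3 pair (-1.01), and ran from -1.003 to -0.76 with 1 array left out. Hmmr at 12 h gained a call without the intensity trend (-0.61) and ran from -0.83 to -0.44 with 1 array left out. Hmmr between controls (0.03) turned sign without the replicate 3 pair at 4 h (-0.026), with 1 array left out (-0.068 to 0.17) and as a median over probe sets (-0.28). The Cd44 difference (0.46) passed with the 60th percentile filter (0.46), quantile normalization (0.53) and the array set block (0.48), range 0.42 to 0.50 with 1 array left out. Cd44 between controls lost its call without a filter (-0.29), under median centring (-0.13) and without the trend (-0.29), and without any of 7 single arrays, range -0.33 to -0.26. Spp1 at 4 h passed on its 6 arrays alone (0.82) and with the array set block (0.82), range 0.73 to 0.92. Ugdh at 12 h ran from -0.0071 to 0.32 and Hyal3 at 12 h from -0.33 to 0.073 with 1 array left out, and Hyal3 was 0.24 as a median over probe sets. The cause was not tested. Probe sets lower at 4 h numbered 3068, 1522 under median centring and 4960 with the array set block, range 2233 to 4181. The difference gave 1015 higher, 568 under median centring and 2168 with the block of array sets, range 647 to 1501, and 1138 lower, 1924 with that block, range 757 to 1488. Median centring moved the share of higher calls at 4 h to 63.67%, beside 40.84%, that of the difference to 33.75%, beside 47.14%, and that between controls to 63.23%, beside 52.32%; it moved the median of all changes at 4 h to 0.04, beside -0.15. With the replicate block 2144 probe sets were higher and 3076 lower at 4 h, and no member call changed (Cd44 adjusted p = 2.04e-06, Hmmr 0.0313 at 4 h). No block was fitted between controls. The 3 arrays a group limit the precision, and dim probe sets such as Hmmr most.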
